A study of Rattus norvegicus with 2 samples.

Results

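GABARAP, GABARAPL1, GABARAPL2, MAP1LC3A and MAP1LC3B belong to the ATG8 family of small ubiquitin-like proteins. They were compared between sorted and control YB2/0 cells, a rat myeloma line, on 1 Affymetrix array per condition. Control cells were untransfected YB2/0 cells in conventional culture. For the sorted sample, the study introduced a cDNA library of human umbilical vein endothelial cells into YB2/0 cells with a retrovirus, sorted the cells repeatedly for binding of patient IgG and cloned them. The labels name this sample sorted cells and the study's account names cloned cells, with no word in either on which serum or clone it came from. Both samples carry the same label for tissue, myeloma, and the labels list no treatment. The array is annotated with human genes, so rat RNA is measured only as far as it hybridises to the probes. Human RNA from the inserted library can be read by these probes too. Its part in the signals of the sorted sample was not tested.

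The members were taken as every probe set whose annotation holds one of the 5 symbols. This gave 10 of 54613 probe sets, the Affymetrix controls left out, and 5 of 21357 gene symbols. GABARAP itself was selected on its values in these same samples, a higher signal in sorted cells with a Present call on both arrays, so its difference is given as a description. The question was whether the other 9 probe sets, which were taken by their symbols, followed it. With 1 array per condition there was no replicate error, and no test between conditions was possible.

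In autophagy, a cell encloses part of its cytoplasm in a double membrane and delivers it to the lysosome. ATG8 proteins are cut by ATG4 proteases and then joined to the lipid phosphatidylethanolamine of the growing membrane, where they recruit cargo receptors and help the autophagosome to mature and fuse. The family falls into the GABARAP branch (GABARAP, GABARAPL1 and GABARAPL2) and the LC3 branch (the MAP1LC3 genes). Plasma cells and myeloma cells, which secrete much protein, are known to depend on autophagy. All 5 symbols have a rat protein-coding gene of the same name in the RefSeq gene table of the rat assembly GRCr8.

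GABARAP, chosen for its rise, was higher in sorted cells. None of its relatives rose or fell at 2-fold or more with detection. Of their 9 probe sets, however, 7 were Present on neither array and so could not count. Across all probe sets, 1.61% rose and 1.77% fell by as much with detection, so little can be read from none among 9. GABARAP, named for its binding to the GABA type A receptor and an adaptor of late autophagosome steps, is read by probe set 200645_at. Its MAS5 signal, a background-corrected intensity on a linear scale, was 731 in control cells against 3381 in sorted cells. It was called Present on both arrays, and the log2 ratio of sorted over control signal was 2.21, or 4.63-fold. In bulk RNA, a change in every cell and a change in a share of the cells cannot be told apart. Whether the added signal came from rat RNA or from human RNA of the inserted library was not tested. Among the 2556 probe sets Present on both arrays it had rank 7 from the highest log2 ratio.

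GABARAPL2, also known as GATE-16 and first described in transport within the Golgi, was the only other member detected on both arrays. Probe set 209046_s_at read 2523 in control cells against 3656 in sorted cells. The log2 ratio was 0.53, or 1.45-fold. It went the same way as GABARAP but stayed under 2-fold. Of the probe sets Present on both arrays, 22.9% had a log2 ratio at least as high as that of GABARAPL2. The log2 ratios of GABARAP and GABARAPL2 lay 1.67 apart.

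For scale, the 18 probe sets of the hybridisation spikes, RNA added to each sample in fixed amounts, had an SD of the log2 ratio of 0.33. Their log2 ratios lay between -0.58 and 0.57, a span that takes in the 0.53 of GABARAPL2. Probe sets Present on both arrays had a median log2 ratio of 0.11 with an SD of 0.67. Probe sets of 1 gene do not always read alike either. In the 243 genes with several probe sets Present on both arrays, each naming that gene alone, the log2 ratios of a gene spanned 0.56 in the median and 1.33 at the 90th percentile.

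GABARAPL1, the relative closest in sequence to GABARAP, was not detected. Probe set 208868_s_at read 243 in control cells against 218 in sorted cells, and 208869_s_at read 470 against 183. Both were Absent on both arrays. A further probe set, 211458_s_at, is annotated to GABARAPL1 and GABARAPL3 together and was Absent on both arrays at 107 and 67.8. All 3 log2 ratios were below 0 (-0.16, -1.36 and -0.66), the opposite sign to GABARAP, but they are ratios of signals that were not detected.

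In the LC3 branch, MAP1LC3A, which encodes LC3A, is read by 3 probe sets that pointed in different directions. Probe set 227219_x_at was Present in control cells at 2653 and Absent in sorted cells at 1844, with a log2 ratio of -0.52. The signal of 224378_x_at was 2808 in control cells against 3438 in sorted cells, a log2 ratio of 0.29, and that of 232011_s_at was 772 and 1562, a log2 ratio of 1.02. The last of these passed 2-fold in size as deposited (0.91 with centring), but both were Absent on both arrays and so were not counted. Within this 1 gene the log2 ratios spanned 1.54.

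MAP1LC3B encodes LC3B, the form used most widely to count autophagosomes, and neither of its probe sets was detected. Probe set 208785_s_at read 412 in control cells against 407 in sorted cells, and 208786_s_at read 80.0 against 91.5. The log2 ratios were -0.015 and 0.19. No level of MAP1LC3B can be read from either array.

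**Figure D1:**
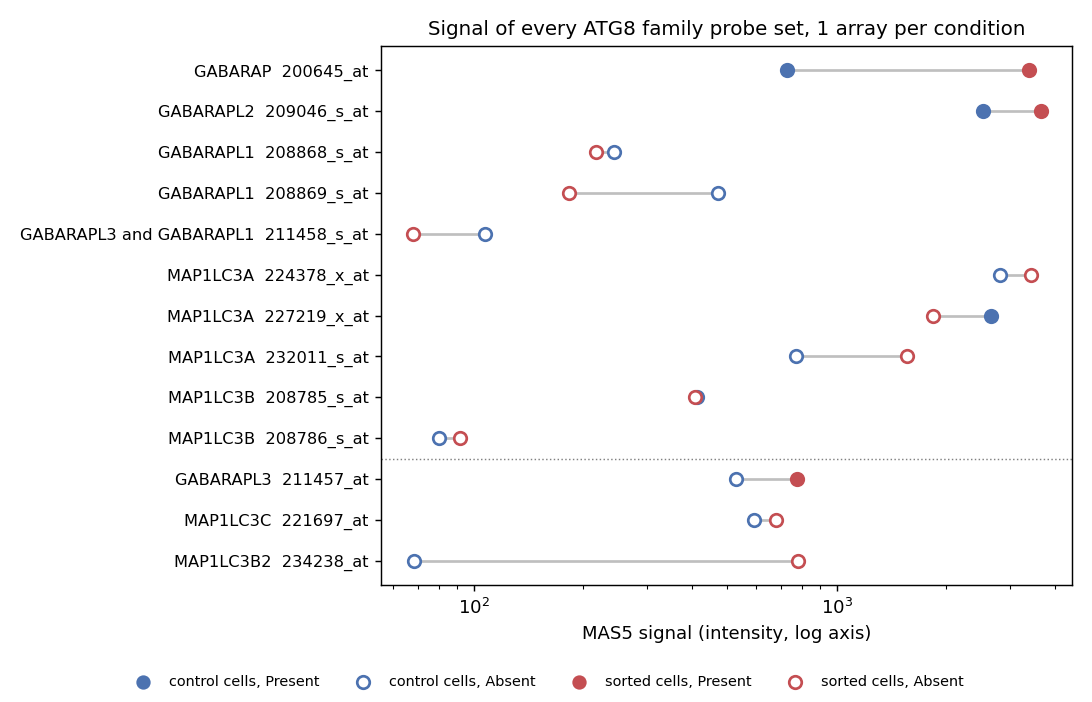
MAS5 signal (horizontal log axis) of the 10 member probe sets and, under the dotted line, of 3 probe sets of other ATG8 symbols, from 1 array each of control cells (blue) and sorted cells (red). Filled circles are Present and open circles Absent, and signals should be compared within a row only, since probe sets differ in how well they bind. GABARAP and GABARAPL2 are filled on both arrays, at 731 and 3381 for GABARAP and at 2523 and 3656 for GABARAPL2.

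Of the 10 member probe sets, 2 were Present on both arrays, 1 in control cells only and 7 on neither. Across all probe sets, 4.68% were Present on both arrays and 12.5% on at least 1. To count as higher, a member had to be up by at least 2-fold with a Present call in sorted cells, and to count as lower, down by at least 2-fold with a Present call in control cells. By this rule 1 member was higher, GABARAP, and 0 were lower. The same rule took in 1.61% of all probe sets as higher and 1.77% as lower. Among probe sets Present on both arrays it took in 6.34% as higher and 4.15% as lower. Since GABARAP was chosen for this difference and for its Present calls, nothing is read from the count of 1 or from its part in the detection counts. With shares this low, nothing is read from the absence of other members either.

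The 9 probe sets other than GABARAP had a median log2 ratio of -0.015, against -0.031 for all probe sets, with 4 above 0 and 5 below. Their log2 ratios lay between -1.36 and 1.02. Of the 7 that were Absent on both arrays, 2 differed by 2-fold or more, one each way. Among all probe sets Present on neither array, 51.2% differed by as much. All members but that of GABARAP, 9 of the 10, have an ID ending in _s_at or _x_at, which marks probes that can bind transcripts of several genes. GABARAP is thus also the only member with a gene-specific probe set.

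**Figure D2:**
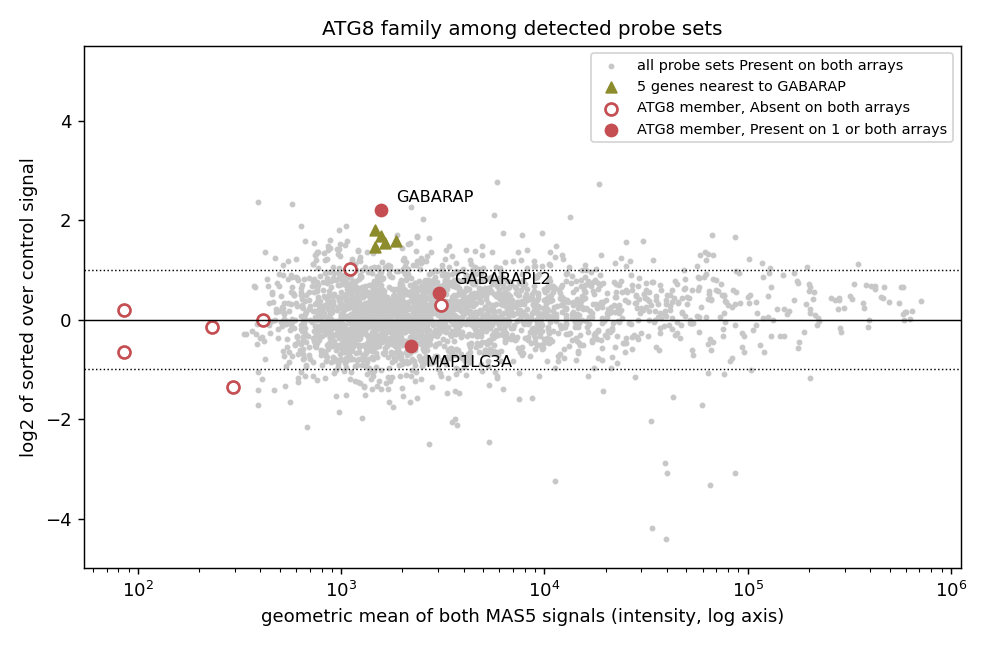
Log2 of sorted over control signal (vertical axis) against the geometric mean of both signals (horizontal log axis), with 1 array per condition. Grey points are probe sets Present on both arrays, red circles are the members (open where Absent on both arrays), triangles are the 5 genes nearest to GABARAP, and dotted lines mark 2-fold. GABARAP lies at 2.21, GABARAPL2 at 0.53 and the detected MAP1LC3A probe set at -0.52.

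The detection p-values, which test for each probe set whether its matched probes outshine their mismatched partners on that array, moved against the signal for GABARAP and with it for the other detected members. For GABARAP the detection p-value was 0.000732 in control cells, where the signal was lower, against 0.0107 in sorted cells. For GABARAPL2 it went from 0.0376 in control cells to 0.0186 in sorted cells beside the higher signal. The detected MAP1LC3A probe set had 0.0376 in control cells and 0.171 in sorted cells. With a detection p-value under 0.01 required in place of the Present call, GABARAP was detected in control cells only, and 0 members were higher.

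**Figure D3:**
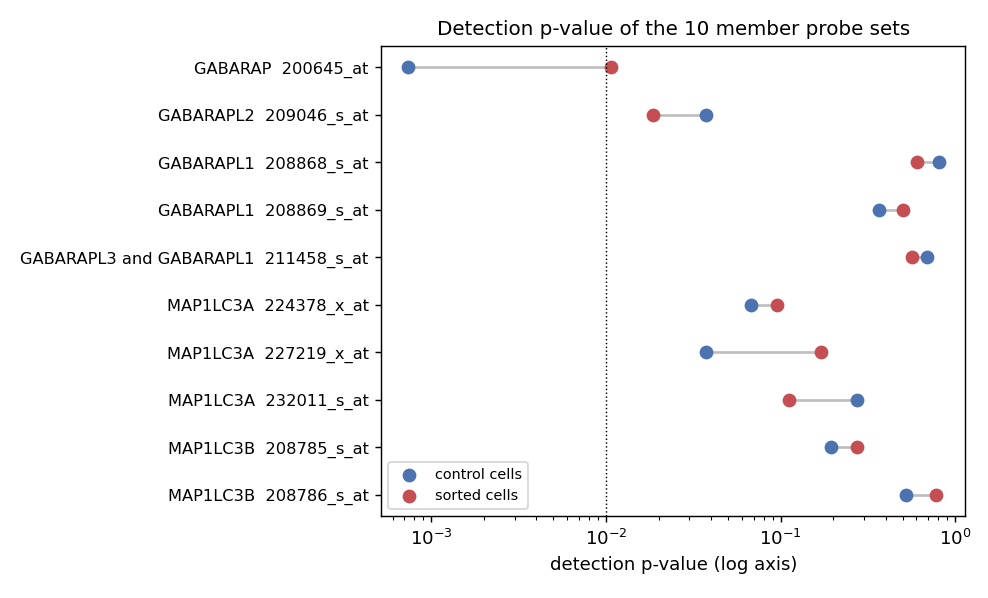
Detection p-value (horizontal log axis) of the 10 member probe sets in control cells (blue) and sorted cells (red), from 1 array each, with a dotted line at 0.01. GABARAP in control cells, at 0.000732, is the only point left of the line, and GABARAP in sorted cells lies just right of it at 0.0107.

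Other ATG8 symbols on the array were described separately. GABARAPL3, a copy of GABARAPL1, is a pseudogene in the rat table. Its probe set 211457_at was Absent at 527 in control cells and Present at 778 in sorted cells, with a log2 ratio of 0.56. MAP1LC3B2 is a pseudogene in the rat as well, and 234238_at was Absent on both arrays at 68.5 and 780. MAP1LC3C has no rat gene of that name in the table, and 221697_at was Absent on both arrays at 593 and 680. None of these passed the rule. The rat table also names 3 pseudogenes after Gabarap, 3 after Gabarapl2 and 2 after Map1lc3b. Whether their transcripts add to these signals was not tested.

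The genes nearest to GABARAP in the plane of log2 control and log2 sorted signal, among 2101 other probe sets that name 1 gene and were Present on both arrays, were ALG5, CENPV, OXR1, SAR1B and ELOA. ALG5, a glucosyltransferase of N-glycan synthesis, read 788 in control cells against 2747 in sorted cells, at a distance of 0.32 from GABARAP on the log2 scale. SAR1B, the GTPase that starts COPII coats, had 886 and 2447, at a distance of 0.54. Log2 ratios of these 5 probe sets lay between 1.46 and 1.80. Ratios of this size follow from choosing them by closeness to the signals of GABARAP. The likeness rests on only 2 samples.

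Of the 11 genes whose products process and attach ATG8 proteins, ATG3, ATG5 and ATG10 were Present on at least 1 array. They were detected by 4 of the 26 probe sets of this list (15.4%, against 12.5% of all probe sets). ATG3, the E2-like enzyme that hands ATG8 proteins to the lipid, was Present on both arrays and lower in sorted cells, at 1134 against 2675 (log2 ratio -1.24). Its other probe set was Absent on both arrays. ATG5, the partner of ATG12 in the complex that directs this step, read differently by probe set. It was Present on both arrays at 1288 and 1265 with 210639_s_at, and Present in control cells only, at 649 against 186, with 202511_s_at (log2 ratio -1.80). ATG10, the E2-like enzyme for ATG12, was Absent at 555 in control cells and Present at 1193 in sorted cells (log2 ratio 1.10).

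Among 15 genes of initiation and membrane supply, 5 were detected, by 6 of 32 probe sets (18.75%, against 12.5% of all probe sets). WDR45, which binds phosphoinositides on the forming membrane, had 3782 and 3780 at 209217_s_at, Present on both arrays, and 1009 (Absent) and 3085 (Present) at 209216_at. ATG2A, a lipid transfer protein, was Present on both arrays with a log2 ratio of 0.10, and WIPI1, a phosphoinositide binder, with 0.56. ATG9B, a lipid scramblase, was Present at 919 in control cells and Absent at 73.2 in sorted cells, lower with a limiting log2 ratio of -2.53. For such a limit, a dim signal under the smallest Present signal of its array was raised to that smallest value.

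In the class III PI3 kinase complex, which makes the lipid that these proteins bind, 4 of 8 genes were detected. They were read by 5 of 27 probe sets (18.5%, against 12.5% of all probe sets). The scaffold BECN1 was Present on both arrays, at 5038 and 5337 (log2 ratio 0.083). RUBCN, which restrains autophagosome maturation, passed the rule in opposite directions, higher at 212735_at (2.30) and lower at 212733_at (-1.96), each Present on 1 array only. Of 15 cargo receptor genes, 6 were detected, by 7 of 41 probe sets (17.1%). CALCOCO2, known as NDP52 and a receptor for bacteria and mitochondria, was Present on both arrays at 1928 in control cells against 962 in sorted cells, a log2 ratio of -1.003 at the edge of the rule. TAX1BP1, a receptor for ubiquitin-tagged cargo, was Present on both arrays with -0.37. SEC62, a translocon protein and ER-phagy receptor, had 0.24 and -0.68 at its probe sets Present on both arrays.

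Among 15 genes whose proteins are known to bind GABARAP, 14 had a probe set naming them alone and 6 were detected. They were read by 8 of 38 probe sets (21.1%, against 12.5% of all probe sets). CLTC, the clathrin heavy chain, was Present on both arrays with a log2 ratio of 0.29, and higher at the dimmer probe set 210498_at, Present in sorted cells only (1.95). CALR, FLCN and NSF were each lower at probe sets detected only in control cells, with limiting log2 ratios of -1.82 for FLCN, -3.08 for NSF, and -1.93 and -1.35 at the probe sets of CALR. Of the 19 genes of fusion and the lysosome, 18 had such a probe set and 6 were detected, by 9 of 57 probe sets (15.8%). LAMP2, a lysosomal membrane protein, had -0.083 at 203041_s_at, Present on both arrays, and 1.79 at 200821_at, Present in sorted cells only. CTSB, a lysosomal protease, was lower at 227961_at, Present in control cells only, with a limit of -1.77. TFEB, a transcription factor of lysosomal genes, was Present on both arrays with -0.061, STX17, the SNARE of the autophagosome, with 0.35, and RAB7A, a GTPase of late endosomes, with 0.53 at the only one of its probe sets Present on both arrays.

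Over the 6 autophagy lists, 221 probe sets named 1 of 81 genes, and 39 were Present on at least 1 array (17.6%, against 12.5% of all probe sets). By the 2-fold rule 5 were higher (2.26%, against 1.61% of all probe sets) and 10 were lower (4.52%, against 1.77%). Unlike the lists, all probe sets take in 11721 with no symbol and 1801 with several, here and for each list above. Of these 15, 13 were Present on 1 array only. Of the 11 listed probe sets Present in sorted cells only, 5 were higher (45.5%, against 36.8% of all such probe sets). Of the 13 Present in control cells only, 8 were lower (61.5%, against 37% of all such probe sets). The 15 listed probe sets Present on both arrays had log2 ratios between -1.24 and 0.56 with a median of -0.00086, and 0 of them were higher at 2-fold while ATG3 and CALCOCO2 were lower. GABARAP, at 2.21, lay above all of them, but it was chosen for its higher signal in sorted cells. The lists' medians took each gene at its brightest probe set, where that probe set was Present on at least 1 array. These medians were -0.027 for conjugation (3 genes), 0.048 for initiation (4 genes) and 0.083 for the PI3 kinase (3 genes). For cargo receptors the median was -0.37 (5 genes), for GABARAP partners 0.0030 (2 genes) and for fusion and the lysosome 0.14 (4 genes). Over 3810 genes taken the same way it was 0.065.

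**Figure D4:**
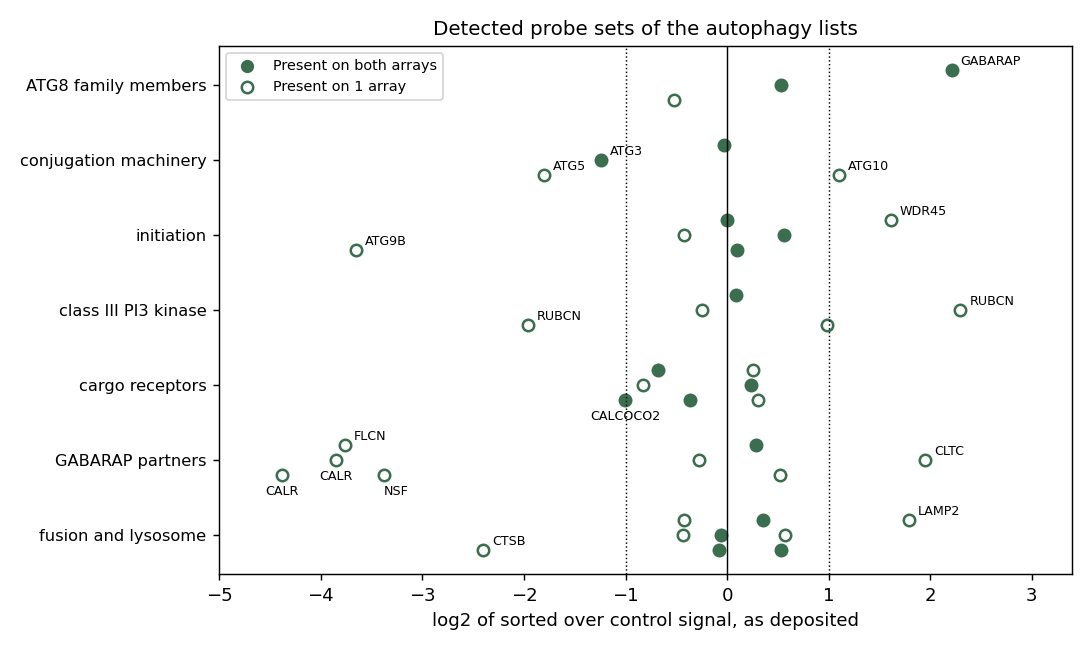
Log2 of sorted over control signal, as deposited (horizontal axis), of each probe set Present on at least 1 array, by list, with 1 array per condition. Filled circles are Present on both arrays and open circles on 1, dotted lines mark 2-fold, and symbols are given for values past it. Most values past 2-fold are open circles, and GABARAP at 2.21 is the only filled circle on the right of the 2-fold line. GABARAP was chosen for its higher signal in sorted cells.

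PROCR and SCARB1 are the genes whose inserted human cDNA the study sequenced in its clones. The study found them in separate clones, isolated with different sera, while the sorted sample read high for both. PROCR read 528933 in the sorted sample and 186 (Absent) in the control sample. SCARB1 was Absent in the control sample as well, at 1176 against 120463 in sorted cells at 1552256_a_at and at 99.9 against 61076 at 201819_at, and its remaining 3 probe sets were Present on neither array. On both arrays the share of probe sets called Present was low, 8.93% in control cells and 8.24% in sorted cells. Of 12 plasma cell and myeloma markers, SDC1 was Present on both arrays, PRDM1 and CD27 in control cells only, and 9 were Present on neither. Of 12 endothelial markers, ERG was Present in sorted cells and 11 were on neither array. The levels of these markers were not tested as a source of the GABARAP signal.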

How the data were processed

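Per the file headers, the deposited values are MAS5 signals, an intensity per probe set that the authors scaled on each array as a whole. The deposited detection p-value and call of each probe set stand beside it. Affymetrix Expression Console is the tool in the submitters' processing notes, with no version given there. A value table of the series differed from the sample files by at most 0.00050%. Symbols came from the platform annotation, where 41091 of 54613 probe sets had exactly 1. Of the Affymetrix controls, the hybridisation spikes were used only for scale.

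Log2 ratios of the deposited signals were computed with Python 3.11.15, numpy 2.4.6 and pandas 2.3.3, and plotted with matplotlib 3.10.9, without further normalization. The smallest Present signal, behind the limits, was 148 (control) or 159 (sorted). Both lay under the median Absent signal, 240 (control) and 237 (sorted), so the limits are not strict bounds. The call rules were tested on simulated data, with ratios planted only at probe sets Present on both arrays. Detection on 1 array only was not simulated. The number of arrays, 1 per condition, limits the precision. The array run and the condition cannot be told apart. Named were all probe sets of the members and of other ATG8 symbols, listed genes past 2-fold or Present on both arrays, and the 5 nearest to GABARAP. For lists, genes were taken from probe sets naming 1 gene. The members and lists were chosen with earlier results of these data known. Under an alternative, shifts of a log2 ratio above 0.33 (the spikes' SD) and of a count above 1.5 times are reported.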

Additional observations from a re-analysis of the deposited data

How the results depend on the processing

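No paired analysis was possible because each condition has 1 array, and no array could be left out. The log2 ratio of GABARAP lay between 2.10 and 2.21 and that of GABARAPL2 between 0.43 and 0.53 over quantile normalization, centring (a shift of 0.11), the value table and a floor at the median Absent signal. Of 40 recomputed member ratios, 2 moved, both with the floor, to -0.99 for 208869_s_at and to -0.019 for 211458_s_at. The count of 1 higher member was 0 with a detection p-value under 0.01 and 2 with no detection call required, which adds 232011_s_at, it stayed 1 at 4-fold, and the count of 0 lower members was 1 with no call. Of 3 detected members, 1 remained, GABARAP, with the stricter p-value, and 1 with gene-specific probe sets only, because GABARAP alone has one. Of 24 recomputed list medians, 7 moved, and the cause was not tested. With gene-specific probe sets the median was 1.10 for conjugation, from ATG10 alone, and -1.003 for cargo receptors, from CALCOCO2 alone. For the PI3 kinase it was 1.02, from AMBRA1 (-0.25) and RUBCN (2.30) alone. With each gene at the median over its probe sets it was -0.76 for the PI3 kinase, -0.83 for cargo receptors and -0.44 for GABARAP partners. With no call required it was 0.35 for GABARAP partners. In 8 of the 24 the sign changed, in the lists of conjugation, initiation, the PI3 kinase and GABARAP partners. The median kept its sign for cargo receptors (-1.003 to -0.25) and for fusion and the lysosome (0.035 to 0.35).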

Other observations

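GABARAP was not alone in having a larger detection p-value on the array where its signal was higher. Of the 162 probe sets Present on both arrays and higher at 2-fold, 61 (37.7%) had a larger detection p-value in sorted cells, against 44.1% of all probe sets Present on both arrays. Of the same 162, 53 had a detection p-value under 0.01 on both arrays. Among all probe sets Present on both arrays, the share was 32.2%, so this count is not particular to the higher ones.

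The 13 listed autophagy genes with a value past 2-fold had 44 probe sets in all, of which 15 passed the rule. CALR passed as lower at 2 probe sets, and RUBCN passed at 2 in opposite directions. Of the 29 probe sets that did not pass, 4 were Present on both arrays, those of ATG5, WDR45, CLTC and LAMP2, with log2 ratios between -0.083 and 0.29. The remaining 25 were Present on neither array, with log2 ratios from -4.21 to 4.73.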
